A study of Mus musculus with 47 samples.

Results

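The genes described here are 44 genes that act in mitosis, the division of the chromosomes and of the cell, followed across 17 sorted blood cell populations. They were taken by name, and probe sets of the array that the platform annotation pairs with a single one of these symbols stood for them. Of the 44, 43 were measured, by 96 of 45101 probe sets and among 18194 genes in all; no probe set was named for Ccnb1 in the annotation used. Where a gene had several probe sets, the brightest over all arrays gave its level. All 43 passed the filter on dim genes, a group mean above the median of all values (3.889 on the log2 scale) in at least 1 group.

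A cell enters mitosis when cyclins A and B activate the kinase Cdk1. Aurora and Polo-like kinases then build the spindle, the kinetochore checkpoint holds the cell until all chromosomes are attached, and the anaphase-promoting complex, with its activator Cdc20, starts chromosome separation by destroying cyclins and securin. Most of these genes are transcribed only late in the cell cycle, so that RNA from a bulk sample carries more of their message when more of its cells are dividing, and bone marrow holds both resting stem cells and fast-dividing progenitors. In such bulk arrays fewer dividing cells and less RNA per dividing cell cannot be told apart.

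The 47 arrays came from adult bone marrow of C57Bl6 mice, with RNA of 2000 sorted cells per array. The labels name no treatment, no altered allele, no sort markers and no sex, give no exact age, and do not say whether animals were pooled. The 17 groups are named LTHSC and STHSC, LMPP, CLP, ETP, CD4, ProB, PreB, IgM+SP, NKmature, GMP, GM, MkE, MkP, PreCFUE, CFUE and ProE. In common use these stand for long- and short-term stem cells, a lymphoid-primed multipotent progenitor, common lymphoid and early T progenitors, helper T cells, B cell stages, mature natural killer cells, granulocyte and monocyte progenitors, megakaryocyte and erythroid progenitors, and steps towards red cells; the labels themselves do not spell them out. Of the groups, 8 had 2 arrays, 6 had 3, 2 had 4 and 1 had 5, all called biological replicates. Array medians ran from 13.8 to 16.9 on the linear intensity scale.

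Defining markers were checked for each group. Natural killer markers (3 of 4 measured) averaged 10.8 to 10.9 on NKmature arrays but also 8.92 to 9.09 on the 2 ProB arrays, where the B cell list averaged 5.27 to 7.27 and Pax5, the factor that fixes B cell identity, had a mean of 3.8, below the filter. Late neutrophil markers averaged 10.4 to 11.0 on IgM+SP arrays and 10.8 to 10.9 on NKmature arrays. They also reached 10.41 on 1 ProB array (4.89 on the other), 10.88 in PreB, 8.66 in LMPP and 8.19 in MkE, against 3.99 to 4.30 in STHSC. Arrays also fell into classes by Xist, the transcript of the inactive X chromosome, and the Y-linked Eif2s3y: 21 arrays carried Xist, 19 Eif2s3y and 7 both. Most groups lay in a single class, and only PreB, LMPP and ETP spanned more than 1.

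The mean log2 level of the 43 genes was highest in ProE and lowest in CD4. It was 9.68, 9.54 and 9.60 on the 3 ProE arrays, against 5.41 and 5.24 on the 2 CD4 arrays. Below ProE came PreB at 8.99 ± 0.65 (SD, n = 4), NKmature at 8.92 ± 0.02 (n = 2), LMPP at 8.91 ± 0.18 (n = 5) and CFUE at 8.90 ± 0.06 (n = 3), and these neighbours overlapped. PreB also overlapped ProE: its highest array, at 9.59, lay above the lowest ProE array, at 9.54. PreCFUE at 8.63 ± 0.11 (n = 3) lay below CFUE without overlap. GMP at 8.55 ± 0.12 (n = 3), STHSC at 8.51 ± 0.11 (n = 2) and MkP at 8.48 ± 0.29 (n = 3) followed, each overlapping its neighbour in the order.

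GM, at 8.01 ± 0.03 (n = 2), stood below MkP and above ProB without overlap. ProB at 7.59 ± 0.03 (n = 2), MkE at 7.59 ± 0.24 (n = 4) and ETP at 7.53 ± 0.22 (n = 3) could not be ordered by their arrays, and all 3 lay above IgM+SP. IgM+SP at 6.92 ± 0.13 (n = 2) and CLP at 6.67 ± 0.05 (n = 2) did not overlap each other, but their order turned after a further quantile normalization. LTHSC followed with 5.15 and 6.94 on its 2 arrays, a spread that took in CLP and CD4. ProE was first under every alternative processing that was run, and CD4 was last in all of them except without LTHSC replicate 2, where LTHSC was last.

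**Figure D1:**
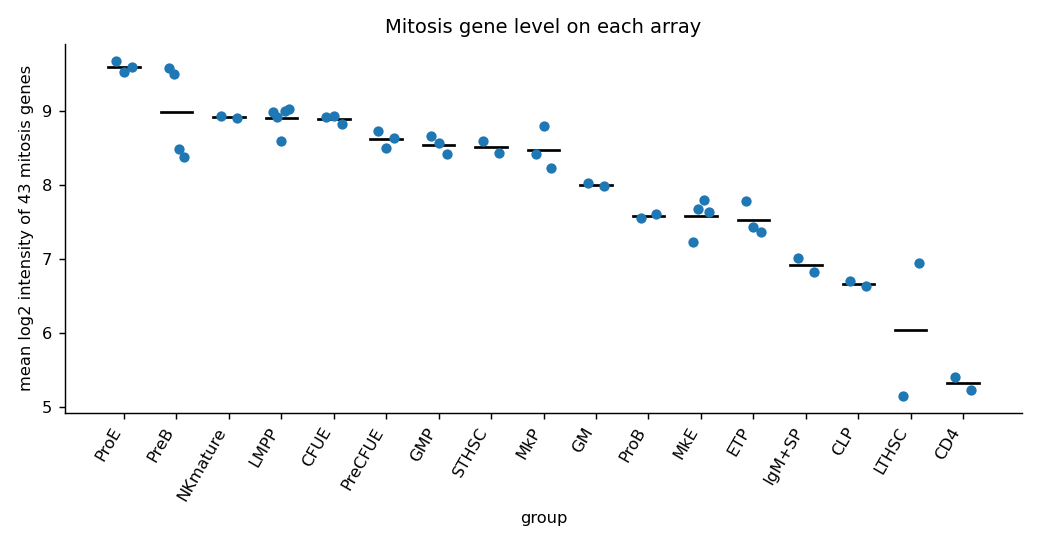
Mean log2 intensity of 43 mitosis genes on each of 47 arrays (points) in 17 groups, ordered by group mean (bars). ProE arrays sit between 9.54 and 9.68 and CD4 arrays between 5.24 and 5.41, while the PreB and LTHSC arrays are spread widely.

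PreB and LTHSC held arrays that stood apart. PreB replicates 1 and 2, which carried Xist, had module means of 9.59 and 9.51, and replicates 3 and 4, which carried Eif2s3y, had 8.49 and 8.38. On both Xist arrays 35 of the 43 genes were higher than on both others, 2 were lower on both, and the median difference was 1.03. Of all genes tested, 37.4% were higher and 27.7% lower on both Xist arrays, with a median difference of 0.06. Plk1, the Polo-like kinase of mitotic entry, read 8.27 and 8.12 against 5.11 and 5.31. Birc5, the survivin subunit of the chromosomal passenger complex, read 9.93 and 10.12 against 7.45 and 6.77. Mki67, the Ki-67 protein that coats mitotic chromosomes, did not divide the arrays, at 11.93, 11.98, 12.01 and 11.87. The lower pair also carried more natural killer marker signal (6.4 to 6.6 against 3.5 to 3.6) and more late neutrophil signal (10.3 to 10.9 against 3.9 to 6.2), and less of the B cell list (7.9 against 9.3 to 9.6); the part of these cells or of the Xist class in the difference was not tested.

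The second such group was LTHSC. All 43 genes were higher on replicate 2 than on replicate 1, with a median difference of 1.86, against 54.9% of all genes tested and a median of 0.07. Ccna2, the A-type cyclin of S phase and mitotic entry, read 3.84 and 7.42, and Mki67 read 8.08 and 10.21. Stem cell markers averaged 9.5 on replicate 1 and 10.2 on replicate 2, and the erythroid list averaged 7.1 and 9.4; their part in the difference was not tested. For each comparison below that rests on LTHSC or PreB, the total of members called is given with and without these arrays.

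**Figure D2:**
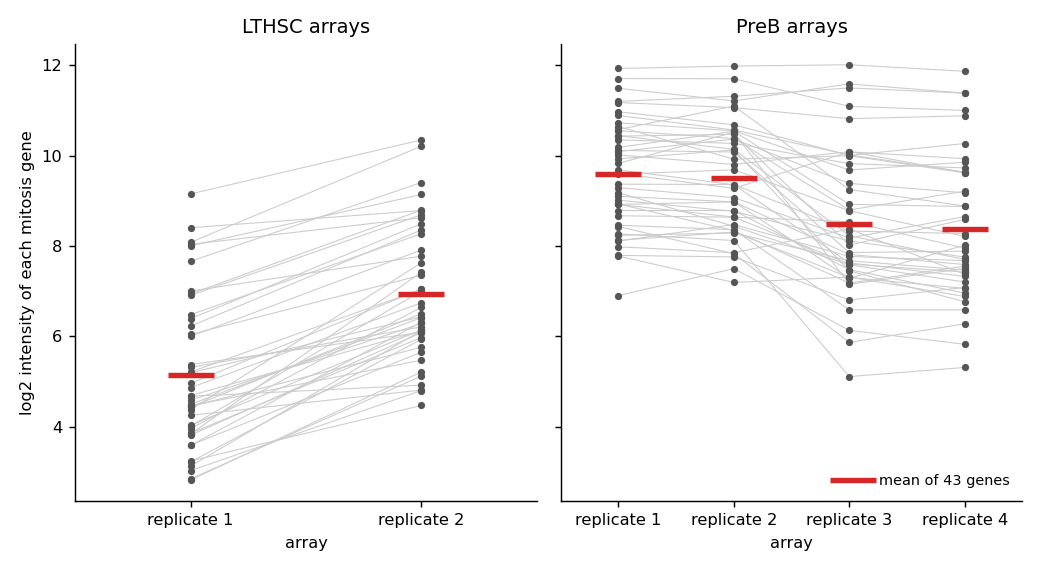
Log2 intensity of each of 43 mitosis genes (points, with grey lines joining the same gene) on the LTHSC and PreB arrays; red bars are array means. The bars lie at 5.15 and 6.94 for LTHSC, and at 9.59, 9.51, 8.49 and 8.38 for PreB; replicates have no order.

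The 43 genes followed much the same course over the groups. Across the 17 group means, the correlation of a gene with the mean of the other members was above 0.9 for 33 genes, between 0.8 and 0.9 for 7 and below 0.5 for 3, with a median of 0.94. These are descriptions over points that share arrays; without either LTHSC array, or with only one class of PreB arrays, the median was 0.93 to 0.95. The step from a gene's lowest to its highest group mean had a median of 4.62 on the log2 scale and ran from 2.44 to 6.45. ProE held the highest mean of 35 genes, NKmature and PreB of 3 each, and LMPP and STHSC of 1 each. CD4 held the lowest mean of 32, CLP of 4, LTHSC of 3 and IgM+SP of 2. These counts describe the same 43 genes whose mean ordered the groups, and no share over all genes is given with them. All 43 differed among the 17 groups by limma's F-test at an adjusted p under 0.05, where 90.3% of all genes tested did.

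Cep55, a scaffold of the midbody that recruits the abscission machinery, had a correlation of 0.27. Kif23, the mitotic kinesin of the centralspindlin complex, had 0.30, and Smc4, a core ATPase of condensin, had 0.41. Racgap1, the other centralspindlin subunit, came next with 0.83, as did Ube2c, the ubiquitin-conjugating enzyme of the anaphase-promoting complex. Cep55 and Kif23 belong to the list of cytokinesis genes, which also held Ect2, the exchange factor that activates RhoA at the cleavage site. Ect2 read 5.90 and 6.41 in STHSC and 6.34, 5.46 and 5.87 in MkP, against 7.50, 7.88, 8.35, 9.02 and 9.28 in LMPP.

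Smc4 departed from the others at the low end of the order. It read 11.63 and 11.56 in CD4, as high as in ProE (11.66, 11.59 and 11.62), and 9.54 and 8.82 in CLP. Its other 2 probe sets had CD4 means of 10.8 and 10.3, the second and the first of the 17 groups. Kif23 rested on a single probe set, since its other 2 stayed at or below 3.9 in every group. Cep55 did so too, as its other probe set stayed between 2.4 and 3.0. Of 53 probe sets of members that were not used, 42 passed the filter level in some group, and 20 of these had a correlation above 0.8 with the mean of the other members.

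**Figure D3:**
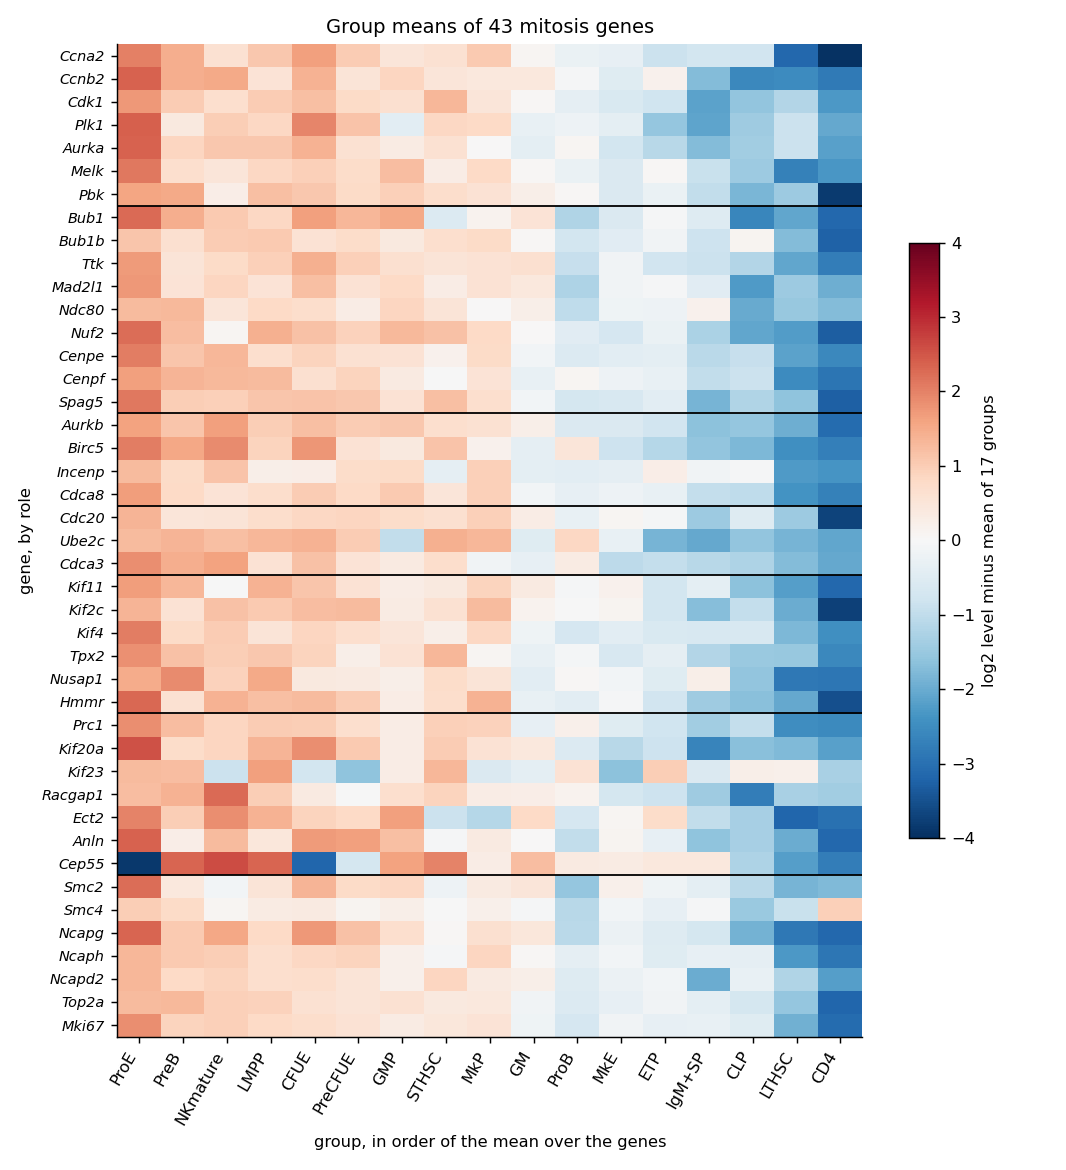
Group means of 43 mitosis genes (rows, by role, with lines between roles) in 17 groups (columns, by falling module mean), as log2 level minus the gene's mean over the groups. Nearly every row goes from red to blue from left to right; Cep55 in ProE and CFUE, Kif23 in NKmature, PreCFUE and MkE, and Smc4 in CD4 break the pattern.

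Genes of this late phase of the cycle are commonly controlled through a promoter element called the cell cycle genes homology region, bound by the DREAM and MuvB complexes, together with CCAAT boxes bound by NF-Y. The RefSeq promoter table (GRCm38.p6, from 250 bases before to 50 after each gene start) held 36 of the members in 39 windows. The letters TTTGAA, on either strand, were found for 28 of the 36 genes (77.8%) and in 17.9% of all 32851 windows of that length. That form, its variant TTTAAA or its variant with a CG pair, TTCGAA, was found for 31 of 36 (86.1%), against 28.8% of all windows. CCAAT, on either strand, was found for 26 of 36 (72.2%) against 37.4%, and at 2 or more places for 17 genes against 11.7% of windows. A form of the first element began within 50 bases of the gene start in 30 of the 39 member windows (76.9%), against 8.62% of all windows, a distance chosen after the matches had been seen. The E2F letters TTTCGCGC were found for 1 gene of 36 (2.78%) and in 0.323% of all windows. A match says only that the letters are there. No form of the first element was found in the windows of Mad2l1, Melk, Ncaph, Nuf2 and Nusap1.

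The 250 bases before the start are shown for 3 genes whose levels follow the module closely, for Cep55, which left it in erythroid cells, and for Nusap1, a spindle microtubule protein that followed it without any match. Capitals mark the 3 forms of the first element and the CCAAT boxes, on either strand. The windows lie on chr7:135716380-135716629 (minus strand) for Mki67, chr4:118437344-118437593 (minus strand) for Cdc20, chr11:99024190-99024439 (minus strand) for Top2a, chr19:38054791-38055040 (plus strand) for Cep55 and chr2:119618048-119618297 (plus strand) for Nusap1, all in GRCm38.p6 and written along the gene's strand.
Mki67: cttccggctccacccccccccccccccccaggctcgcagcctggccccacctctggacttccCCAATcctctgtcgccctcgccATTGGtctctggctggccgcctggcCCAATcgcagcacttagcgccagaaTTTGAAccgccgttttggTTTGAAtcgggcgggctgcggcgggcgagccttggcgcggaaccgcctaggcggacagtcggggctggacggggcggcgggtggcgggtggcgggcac
Cdc20: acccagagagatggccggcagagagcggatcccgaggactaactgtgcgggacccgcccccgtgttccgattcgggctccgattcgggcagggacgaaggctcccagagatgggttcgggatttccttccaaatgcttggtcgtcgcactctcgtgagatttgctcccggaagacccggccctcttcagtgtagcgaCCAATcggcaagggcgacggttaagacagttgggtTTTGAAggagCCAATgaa
Top2a: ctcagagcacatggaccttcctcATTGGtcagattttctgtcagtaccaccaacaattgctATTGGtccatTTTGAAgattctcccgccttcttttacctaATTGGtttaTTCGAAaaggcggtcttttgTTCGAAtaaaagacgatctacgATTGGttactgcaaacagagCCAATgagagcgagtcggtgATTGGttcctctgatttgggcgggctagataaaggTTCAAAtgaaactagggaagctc
Cep55: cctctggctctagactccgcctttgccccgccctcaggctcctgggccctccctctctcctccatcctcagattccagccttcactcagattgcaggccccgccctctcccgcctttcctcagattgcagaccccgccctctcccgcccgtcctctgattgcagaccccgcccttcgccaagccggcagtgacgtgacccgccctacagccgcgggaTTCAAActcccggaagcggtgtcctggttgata
Nusap1: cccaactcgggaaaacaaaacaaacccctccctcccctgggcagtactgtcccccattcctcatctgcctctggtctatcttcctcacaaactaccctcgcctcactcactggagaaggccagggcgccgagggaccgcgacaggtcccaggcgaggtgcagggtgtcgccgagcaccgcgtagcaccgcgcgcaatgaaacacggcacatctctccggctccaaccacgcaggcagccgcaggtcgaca
In the Mki67 window TTTGAA began 116 and 98 bases before the start. In the Cdc20 window it began 18 bases before the start, with CCAAT at 53 and at 8 bases. In the window shown, Cep55 carried the reverse form TTCAAA 33 bases before the start and no CCAAT.

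Neighbouring populations were then compared, with a gene called at a limma adjusted p under 0.05 and a change of at least 2-fold. STHSC stood above LTHSC for 41 of 43 members and below it for none, with a median difference of 2.44, where 2.06% of all genes tested were higher and 4.75% lower and their median was -0.13. Cep55 showed the largest rise: it read 8.91 and 8.53 in STHSC against 4.25 and 4.81 in LTHSC, a difference of 4.19 ± 0.51 (SE, adjusted p = 4.2e-07). Ccna2 read 9.49 and 9.22 against 3.84 and 7.42, a difference of 3.73 ± 0.52 (adjusted p = 3.6e-06). Arrays of the groups did not overlap for either gene, but the LTHSC arrays lay far apart for Ccna2. Without LTHSC replicate 1, the median over the members was 1.58, 26 were called, Cep55 rose by 3.91 and Ccna2 by 1.94, and Top2a, the topoisomerase that untangles sister chromatids, was no longer called at 1.06. Without LTHSC replicate 2 the median was 3.29 and 42 were called, Plk1 (2.71) and Smc4 (1.49) among them. In such fits the lone LTHSC array is assumed to vary like the arrays of the other groups.

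Plk1 and Smc4 were the members not called, at 1.67 ± 0.63 (adjusted p = 0.089) and 0.89 ± 0.28 (adjusted p = 0.04, under 2-fold). With the 2 groups fitted alone a single member was called. Of 24 DNA replication genes on a separate list, 8 were higher in STHSC, with Rrm2, a subunit of ribonucleotide reductase, at 2.52. Of 28 genes of cell cycle transcription and rest, 3 were higher and 1 lower. The lower was Cdkn1c, the cyclin-dependent kinase inhibitor p57 known for keeping stem cells at rest, at -3.15.

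From STHSC to LMPP 3 members were higher and none lower, with a median of 0.34, where 3.92% of all genes tested were higher and 1.5% lower and the median was 0.01. Ect2 led at 2.25 ± 0.35 (adjusted p = 3.1e-05). Bub1, the checkpoint kinase of the kinetochore, was higher by 1.38 ± 0.31 (adjusted p = 0.0034) and Cenpf, a kinetochore protein, by 1.28 ± 0.33 (adjusted p = 0.0087). Bub1 read 7.47, 7.32, 7.81, 8.24 and 8.30 in LMPP and 6.66 and 6.24 in STHSC, without overlap. The count fell to 1 without STHSC replicate 2, with the Xist class as a block, and with the groups fitted alone; Cenpf lost its call without either STHSC array.

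Towards MkE the level fell: 17 members were lower than in STHSC and none higher, with a median of -0.85, where 12.3% of all genes tested were higher and 6.01% lower and the median was -0.01. Kif23 led, with 6.29, 6.90, 6.87 and 6.92 in MkE against 9.93 and 9.53 in STHSC, a difference of -2.98 ± 0.32 (adjusted p = 2.7e-09). Tpx2, which activates Aurora A on the spindle, was lower by -1.95 ± 0.42 (adjusted p = 0.00042). Of the 7 condensin and chromosome genes (5 condensin subunits, Top2a and Mki67) 1 was called, with a median of -0.30. Late neutrophil markers averaged 6.57 to 8.19 on MkE arrays and 3.99 to 4.30 on STHSC arrays, and their part in the difference was not tested. MkE arrays were all of the Xist class and STHSC arrays of the Eif2s3y class. Only PreB held arrays of both these classes, so a block for the class takes its difference from PreB and cannot separate class from group here. With that class as a block 31 members were lower, and without STHSC replicate 1 only 5 were.

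Along the erythroid groups the means of 35 of 43 members stood in ascending order from MkE over PreCFUE and CFUE to ProE, as did those of 12.1% of all genes tested, and the ProE mean lay above the MkE mean for 42 members and for 49.8% of all genes. This order is a description, and the calls at each step follow. From MkE to PreCFUE 23 were higher and none lower, with a median of 1.10, where 2.87% of all genes tested were higher and 4.44% lower and the median was 0.03. The kinases and cyclins of entry were higher for 6 of 7 genes and the checkpoint genes for 7 of 9, against 1 of 7 condensin and chromosome genes. Kif20a, a kinesin of the central spindle, read 7.92, 6.97 and 7.42 against 4.30, 5.03, 6.39 and 5.40, a difference of 2.15 ± 0.47 (adjusted p = 0.0011). Bub1 rose by 1.90 ± 0.29 (adjusted p = 5.5e-06), with 8.31, 8.31 and 8.33 against 6.25, 6.33, 6.56 and 6.54. The count was 15 with the mean of all probe sets per gene and 15 without PreCFUE replicate 3. Late neutrophil markers averaged 5.35 to 6.42 on PreCFUE arrays and 6.57 to 8.19 on MkE arrays, and their part in the rise was not tested. Among genes of cell cycle exit Ccng2 was lower by -4.30, Cdkn2d by -1.72 and Cdkn1b, the inhibitor p27, by -1.53, while 9 of 24 replication genes were higher.

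From PreCFUE to CFUE the median over the members was 0.29 and 1 was called, lower, where 1.08% of all genes tested were higher and 1.58% lower and the median was -0.01. From CFUE to ProE 8 were higher and none lower, with a median of 0.66, where 1.78% of all genes tested were higher and 2.84% lower and the median was -0.02. Mki67 read 12.89, 12.88 and 12.98 in ProE and 11.78, 11.84 and 11.68 in CFUE, a difference of 1.15 ± 0.28 (adjusted p = 0.0063). Kif4, a chromosome-bound kinesin, was higher by 1.16 ± 0.21 (adjusted p = 0.00024). Kif23 rose by 2.02 ± 0.30 (adjusted p = 8.4e-06), from 7.33, 8.08 and 7.54 to 9.76, 9.49 and 9.76. ProE arrays were of the Eif2s3y class and CFUE arrays of the Xist class. With the class as a block 30 were higher, but that fit takes the class difference from PreB and cannot separate class from group. The count was 4 without CFUE replicate 2 or 3 and 5 without any of the 3 ProE arrays, each in turn.

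Cep55 was the only member whose group means fell at every step; 6 others had a lower mean in CFUE than in PreCFUE and Ube2c a lower one in ProE than in CFUE, none of them called. It read 6.76, 6.99, 7.20 and 7.20 in MkE, 6.26, 6.19 and 5.60 in PreCFUE, 3.61, 3.55 and 3.55 in CFUE, and 3.02, 2.50 and 3.08 in ProE. No array of CFUE or ProE reached the filter level of 3.889, and no other group had all its arrays below it. The fall from PreCFUE to CFUE was -2.45 ± 0.42 (adjusted p = 0.00011) and was called in every fit that left out an array of these groups, where it ran from -2.66 to -2.33. Outside the erythroid groups Cep55 went with the module, with 9.59, 9.69, 8.78 and 8.21 in PreB, 9.40 and 9.24 in NKmature, and 4.76 and 3.19 in CD4. Its level rests on 1 probe set, so transcript forms that this probe set does not match were not measured.

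**Figure D4:**
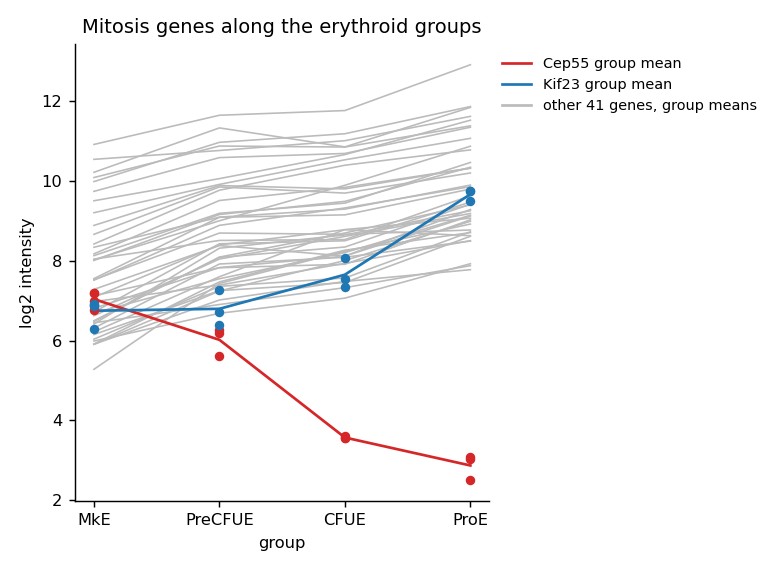
Log2 intensity of mitosis genes in MkE, PreCFUE, CFUE and ProE: group means of 41 genes (grey), and group means (lines) and arrays (points) of Cep55 (red) and Kif23 (blue). Cep55 falls from 7.04 to 2.87 while 42 of the 43 genes end higher in ProE than in MkE.

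MkP, the megakaryocyte branch, was above MkE for 19 members and below for 1, with a median of 0.95, where 2.96% of all genes tested were higher and 8.55% lower and the median was -0.08. Kif20a led at 1.68 ± 0.47 (adjusted p = 0.0064), reading 6.72, 7.55 and 6.61 against 4.30, 5.03, 6.39 and 5.40. Nuf2, of the Ndc80 complex that grips microtubules at the kinetochore, rose by 1.46 ± 0.37 (adjusted p = 0.0027), with 7.78, 8.39 and 7.71 against 6.01, 6.98, 6.34 and 6.66. Ect2 was the lower one, at -1.23 ± 0.32 (adjusted p = 0.0038): it read 6.34, 5.46 and 5.87 against 6.71 to 7.44 on the 4 MkE arrays. Anln, the anillin scaffold of the contractile ring, differed by 0.25 ± 0.31 (adjusted p = 0.57). The total called was 36 after a further quantile normalization, 13 with the mean of probe sets and 11 without MkP replicate 2. Late neutrophil markers averaged 4.72 to 7.90 on MkP arrays and 6.57 to 8.19 on MkE arrays, and their part in the difference was not tested.

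In the myeloid branch few members were called. From LMPP to GMP 5 were lower and none higher, with a median of -0.31, where 10.6% of all genes tested were higher and 6.24% lower and the median was -0.03. The 5 lower members are 11.6% of the 43. Ube2c read 6.56, 6.47 and 6.18 in GMP against 9.14, 9.18, 8.29, 8.44 and 8.48 in LMPP, a difference of -2.30 ± 0.48 (adjusted p = 0.00021). Kif23 was lower by -1.35 ± 0.27 (adjusted p = 0.0001) and Nusap1 by -1.29 ± 0.30 (adjusted p = 0.00091). Bub1 and Anln differed the other way, by 0.68 ± 0.27 and 0.78 ± 0.29, and did not pass the 2-fold limit. Over the same step 4 replication genes were higher and none lower, led by Cdc6, a loader of the replicative helicase, at 1.76. The count was 2 with the mean of probe sets and 8 after quantile normalization.

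GM stood below GMP for 4 members and above it for none, with a median of -0.62. Of all genes tested 5% were higher and 2.95% lower in GM, and the median was 0.01. The comparison does not say which group comes first. Stem cell markers averaged 6.54 in GM, 4.12 in GMP and 7.21 in LMPP. In the same order, the early lymphoid list averaged 7.93, 4.41 and 8.35, and granulocyte and monocyte markers 10.78, 11.46 and 8.23. The part of these marker differences was not tested. Incenp, the scaffold of the chromosomal passenger complex, was lower by -1.16 ± 0.26 (adjusted p = 0.0018). Cdca8, the borealin subunit of the same complex, read 10.06 and 10.12 against 11.31, 11.32 and 11.03, lower by -1.13 ± 0.28 (adjusted p = 0.0046). Melk and Anln were the other two called. Without GM replicate 2 limma called 0 members (6 at an unadjusted p under 0.05), without GM replicate 1 a single one was, and without GMP replicate 1 the count was 2. GM arrays were of the Xist class and GMP arrays of the Eif2s3y class. With the class as a block 28 were lower, but that fit takes the class difference from PreB and cannot separate class from group.

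**Figure D5:**
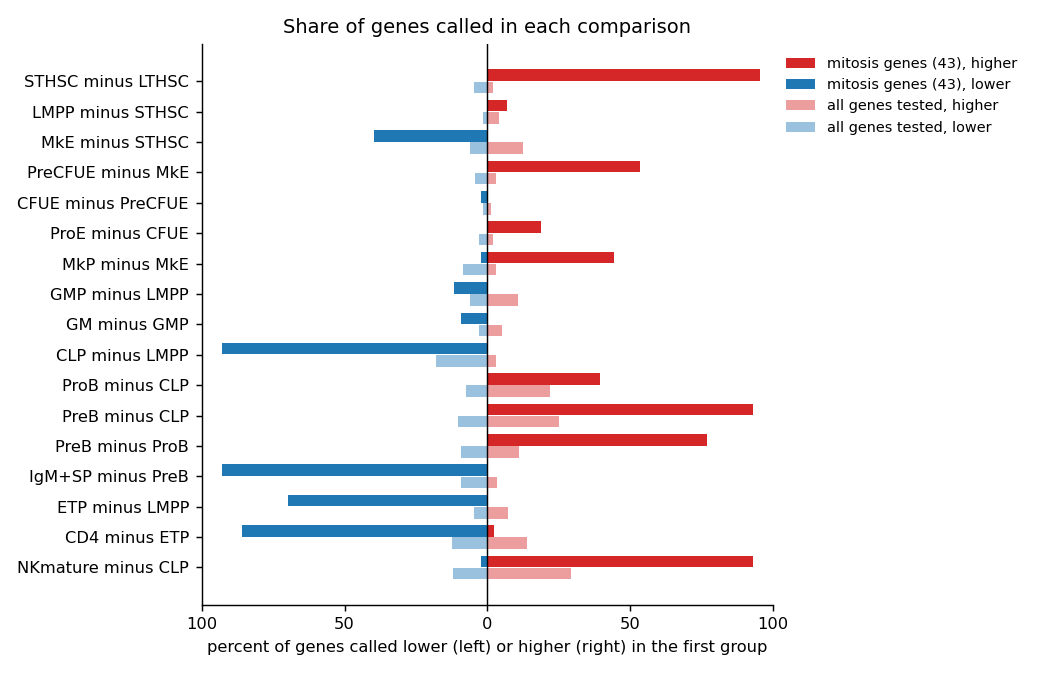
Percent of the 43 mitosis genes (full colours) and of all 13949 genes tested (pale) called higher (right, red) or lower (left, blue) in the first group of each of 17 comparisons. The members' bars reach furthest for STHSC against LTHSC (41 of 43 higher) and, on the lower side, for CLP against LMPP and IgM+SP against PreB (40 of 43 lower each).

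On the lymphoid side CLP lay far below LMPP: 40 of 43 members were lower and none higher, with a median of -2.28, where 3.14% of all genes tested were higher and 18.1% lower and the median was -0.10. All 7 entry kinases and cyclins, all 6 spindle genes and all 7 cytokinesis genes were lower. Racgap1 read 3.71 and 4.18 in CLP against 8.36, 7.97, 7.60, 7.15 and 7.35 in LMPP, a difference of -3.74 ± 0.37 (adjusted p = 8.6e-10). Bub1 was lower by -3.44 ± 0.31 (adjusted p = 1.1e-10) and Nuf2 by -3.51 ± 0.40 (adjusted p = 1.7e-08). Incenp differed by -0.27 ± 0.24 (adjusted p = 0.38) and Bub1b by -0.93 ± 0.27 (adjusted p = 0.0064), under 2-fold. Of 24 replication genes 10 were lower. Leaving out any array of the 2 groups left between 38 and 40 members called.

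ProB stood above CLP for 17 members and below for none, with a median of 0.98, where 21.9% of all genes tested were higher and 7.59% lower and the median was 0.08. Racgap1 read 6.80 and 6.88 against 3.71 and 4.18, a rise of 2.89 ± 0.45 (adjusted p = 2.3e-06), and Ccnb2, a B-type cyclin, read 8.17 and 8.72 against 5.82 and 6.06, a rise of 2.50 ± 0.47 (adjusted p = 4.1e-05). The condensin and chromosome list had none of 7 called and a median of -0.01, and Mki67 differed by -0.21 ± 0.35 (adjusted p = 0.66). Among replication genes 2 were higher and 5 lower, with the helicase subunit Mcm4 at -2.16. Among genes of cell cycle exit, Cdkn2d was higher by 4.36, Cdkn2c by 2.79, Cdkn1b by 1.80 and Ccng2 by 1.16. Cdkn1a was lower, at -2.01. ProB arrays carried the natural killer markers given above. T cell markers averaged 6.18 to 6.60 on them against 4.47 to 4.54 on CLP arrays, late erythroid markers 4.16 to 6.80 against 3.23 to 3.54, and late neutrophil markers 4.89 and 10.41 against 4.79 to 5.27. The part of these cells in the rise was not tested. ProB arrays were of the Xist class and CLP arrays of the Eif2s3y class. With the class as a block 5 members were called, 1 of them higher, and the median was -0.33. That fit takes the class difference from PreB and cannot separate class from group. The count was 11 without CLP replicate 2 and 11 with the mean of probe sets.

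PreB stood above CLP for 40 members and above ProB for 33, and below either for none. The medians were 2.24 and 1.38, where all genes tested had medians of 0.06 and -0.05. Of all genes tested, 25% were higher and 10.5% lower in PreB than in CLP, and 11.2% were higher and 9.13% lower than in ProB. These 2 comparisons share the PreB arrays. Bub1 read 8.67, 8.64, 8.54 and 7.95 in PreB, 5.41 and 6.16 in ProB and 4.41 and 4.37 in CLP, with no overlap, and differed from ProB by 2.67 ± 0.33 (adjusted p = 2.3e-08). Racgap1 differed from CLP by 4.15 ± 0.39 (adjusted p = 3.1e-11). All 9 checkpoint and all 7 condensin and chromosome genes were higher than in ProB, and so were 15 of 24 replication genes. With only the PreB arrays of the Xist class 42 and 43 members were called, and with only those of the Eif2s3y class 36 and 18. Over these choices Bub1 differed from ProB by 2.87 and 2.46, and Racgap1 from CLP by 4.86 and 3.45. With the groups fitted alone 17 were higher in PreB than in ProB. Natural killer markers averaged 3.46 to 6.55 on PreB arrays, 8.92 to 9.09 on ProB and 3.89 to 4.36 on CLP arrays. Late neutrophil markers averaged 3.85 to 10.88 on PreB arrays, 4.89 and 10.41 on ProB and 4.79 to 5.27 on CLP arrays. In the same order, late erythroid markers averaged 4.13 to 7.36, 4.16 to 6.80 and 3.23 to 3.54. The megakaryocyte list averaged 4.03 to 6.53, 4.45 to 4.51 and 4.28 to 4.56. The part of these cells was not tested.

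From PreB to IgM+SP 40 were lower and none higher, with a median of -1.97, where 3.4% of all genes tested were higher and 9.43% lower and the median was -0.02. Ube2c read 5.81 and 4.86 in IgM+SP against 9.83, 10.51, 7.15 and 7.50 in PreB, a difference of -3.41 ± 0.57 (adjusted p = 2.6e-05). Kif20a was lower by -3.36 ± 0.54 (adjusted p = 1.3e-05), with 3.82 and 3.67, below the filter level, against 8.43, 7.83, 5.87 and 6.28. Smc2 and Smc4, the condensin ATPases, differed by -0.80 ± 0.32 and -0.80 ± 0.25 and were not called. With only the Xist arrays of PreB 40 were lower and Ube2c differed by -4.84 and Kif20a by -4.39. With only the Eif2s3y arrays 33 were lower, Ube2c by -1.99 and Kif20a by -2.33, and with the groups fitted alone 15. Late neutrophil markers averaged 10.4 to 11.0 on IgM+SP arrays. They averaged 3.9 to 10.9 on PreB arrays, where the Eif2s3y arrays were the higher ones. The part of these cells in the fall was not tested.

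From LMPP to ETP 30 were lower and none higher, with a median of -1.41, where 7.12% of all genes tested were higher and 4.81% lower and the median was -0.07. Ube2c read 5.56, 5.23 and 5.78 in ETP against the LMPP values given above, a difference of -3.19 ± 0.48 (adjusted p = 4.4e-06). Aurka, the Aurora A kinase of the spindle poles, was lower by -2.19 ± 0.31 (adjusted p = 1.5e-06), with 5.74, 5.48 and 5.35 against 7.85, 7.97, 7.33, 7.68 and 7.76. Ccnb2 differed by -0.39 ± 0.34 (adjusted p = 0.4) and Incenp by 0.04 ± 0.21 (adjusted p = 0.9). Replication genes were lower for 2 of 24.

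From ETP to CD4 37 were lower and 1 higher, with a median of -2.40, where 13.9% of all genes tested were higher and 12.5% lower and the median was 0.00. Cdc20 read 6.29 and 6.33 in CD4 against 10.11, 9.82 and 9.91 in ETP, a difference of -3.64 ± 0.27 (adjusted p = 1.1e-13). Ect2 was lower by -3.72 ± 0.39 (adjusted p = 4.3e-10) and Pbk, a mitotic kinase, by -3.55 ± 0.35 (adjusted p = 1.2e-10). Smc4 was the higher one, at 1.27 ± 0.26 (adjusted p = 0.00012), with 11.63 and 11.56 against 10.30, 10.40 and 10.25. Plk1 and Ube2c, already low in ETP, differed by -0.50 ± 0.57 (adjusted p = 0.54) and -0.21 ± 0.60 (adjusted p = 0.83). Late erythroid markers averaged 5.48 to 6.97 on the CD4 arrays and 2.94 to 3.06 on the ETP arrays. Of these markers Hba-a1 was under the filter level in both groups, and their part in the fall was not tested. CD4 arrays were of the Xist class, while 1 ETP array was of the Eif2s3y class and 2 carried both. Class and group thus cannot be separated here. Of 24 replication genes 18 were lower, and Cdkn2d, the kinase inhibitor p19, was higher by 3.94. Such inhibitors did not run opposite to the module in every group. Cdkn2d averaged 7.78 in CD4 and 4.52 in ProE, but 8.07 in NKmature and 7.72 in PreB, which stood high in the module order. Cdkn1b averaged 8.36 in CD4, 6.98 in ProE, 8.37 in NKmature and 8.95 in PreB.

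NKmature stood above CLP for 40 members and below for 1, with a median of 2.17, where 29.1% of all genes tested were higher and 12.1% lower and the median was 0.17. It shares the CLP arrays with the ProB and PreB comparisons. Racgap1 read 8.89 and 9.05 against 3.71 and 4.18, a rise of 5.02 ± 0.45 (adjusted p = 1.2e-11). Ccnb2, at 5.82 and 6.06 in CLP, rose by 4.09 ± 0.47 (adjusted p = 3.5e-09). Kif23 was the lower one, at -1.08 ± 0.36 (adjusted p = 0.011), with 7.53 and 7.55 against 8.76 and 8.48, and lost its call without CLP replicate 1. NKmature arrays carried both Xist and Eif2s3y, and CLP arrays were of the Eif2s3y class, so class and group cannot be separated here. NKmature arrays also carried the late neutrophil markers given above. IgM+SP arrays carried them at a like level, with a module mean of 6.92 against 8.92; the part of those cells in either value was not tested.

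The falls on the B and the T path were compared directly, as the difference between IgM+SP minus PreB and CD4 minus ETP, which share no arrays. Of the 43 members 14 (32.6%) differed, 8 with a positive difference, meaning less of a fall on the B path, and 6 with a negative one, where 33.9% of all genes tested differed, so the members' share was near the background. Of all genes 13.7% had a positive and 20.2% a negative difference. Cdc20 fell by less on the B path, by 1.70 ± 0.38 (adjusted p = 0.00043), and Mki67 by 1.58 ± 0.44 (adjusted p = 0.0041). Mki67 read 10.81 and 10.75 in IgM+SP and 8.05 and 7.92 in CD4. Ube2c and Racgap1 fell further on the B path, with differences of -3.20 ± 0.83 (adjusted p = 0.0021) and -2.25 ± 0.56 (adjusted p = 0.0015). On the T path Ube2c averaged only 5.52 in ETP and 5.31 in CD4, and Racgap1 5.87 and 5.30. The part of the late neutrophil markers on IgM+SP arrays and of the late erythroid markers on CD4 arrays was not tested. Smc4, which was higher in CD4, differed by -2.07 ± 0.36 (adjusted p = 1.5e-05). The split was 6 against 7 with each array centred on its median, 5 against 12 with only the Xist arrays of PreB and 13 against 3 with only its Eif2s3y arrays. With the Xist class as a block it was 21 against 1, and Ube2c, Racgap1 and Plk1 changed sign.

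Of genes outside the 44, those most like the module over the 17 group means were Spc25 (correlation 0.97), Stil, Nek2, Sgo1 and Ticrr (0.96 each), and Shcbp1, Aspm and Espl1 (0.95 each). Spc25 is a subunit of the Ndc80 kinetochore complex, Espl1 is the protease separase, Sgo1 protects cohesin at centromeres, and Ticrr acts in the start of DNA replication. All but Ticrr were on the separate list of other mitotic genes, of which 58 were tested. On that list 38 were higher in STHSC than LTHSC and none lower (25 without LTHSC replicate 1), 41 were lower in CLP than LMPP and none higher, and 45 were lower in IgM+SP than PreB and none higher (26 with only the Eif2s3y arrays of PreB). Other steps went both ways: 7 were higher and 6 lower in GMP than LMPP, led by Trip13 (1.48) and Cdc25b (-1.76), and 14 were higher and 2, Kif15 and Wee1, lower in ProB than CLP. The shares of all genes called in these comparisons are those given above. For higher genes they were 10.6% in GMP against LMPP and 21.9% in ProB against CLP. The higher counts of this list in these steps were near those shares. Cdc25b, a phosphatase that activates Cdk1, went the other way in some steps: it was lower by -1.58 from MkE to PreCFUE and higher by 2.82 from ETP to CD4.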

How the data were processed

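RNA of 2000 sorted cells per sample was amplified and hybridised to Affymetrix mouse arrays, 47 in 17 groups taken from the labels. The deposited table holds linear intensity values that the authors calculated with RMA, per the series design text, with 1 value for each probe set on each array. No source used here gives the software, its version or the scaling between arrays. Log2 was taken with no pseudocount. Of 45101 probe sets, 34958 had 1 gene symbol in the platform annotation; the brightest stood for each of 18194 genes. The 13949 genes with a group mean over 3.889 were tested with limma 3.58.1 (R 4.3.3), as 17 group means on all arrays (30 residual degrees of freedom), two-sided, with Benjamini-Hochberg adjustment over all of them; the code was tested on simulated data. Replicate numbers did not pair arrays: the median correlation of same-numbered arrays was 0.006. The fit pools the spread among arrays within all groups, which may be partly technical; with 1 array of a pair left out (LTHSC, STHSC, GM, CLP and other groups of 2), the lone array is assumed to vary like the rest. Values are relative within an array, and the number of arrays limits precision.

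All members may be named. Array values are given for Mki67, Top2a, Birc5, Cdc20 and Plk1 in some comparisons, for the members with the largest called differences, and for those least like the others. The members and gene lists were chosen with earlier results of these data known. Alternatives were the mean over a gene's probe sets, a stricter filter (5.968) or none, quantile normalization again, centring on the median, a floor of 16, a trended robust spread, the replicate number or the Xist class (Xist over 7, Eif2s3y over 5) as a block, groups alone, and each array left out. The splits of PreB by class were added after seeing the data.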

Additional observations from a re-analysis of the deposited data

Results flagged for a closer look

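LMPP replicate 3 lay apart from the other 4 LMPP arrays. Its module mean was 8.60 against 8.92 to 9.04. Pbk read 9.72, with 10.02 the highest of the others, Nuf2 7.74 against 8.72 to 8.92, and Mki67 11.34 against 11.90 to 12.12. MkE replicate 1 lay below the other 3 MkE arrays for Cdk1 (7.19 against 7.58 to 7.65), Tpx2 (6.17 against 6.83 to 6.92), Kif23 (6.29 against 6.87 to 6.92) and Mki67 (10.28 against 11.09 to 11.15). These 8 gaps are large against the range of their group by Dixon's criterion, among 132 groups of values examined. Chance alone passes this criterion in about 1 of 20, and 8 of 132 is near that share. Several of the values come from the same array and are not independent.

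The falls from PreB to IgM+SP and from ETP to CD4 differed for 14 of 43 members by the limma test of the difference, near the 33.9% of all genes. Among those followed throughout, Mki67 (1.58), Top2a (1.32) and Cdc20 (1.70) fell less on the B path, and Ube2c (-3.20), Racgap1 (-2.25), Smc4 (-2.07) and Plk1 (-1.98) showed the opposite difference. Plk1 lost its call without either CD4 array, either IgM+SP array, ETP replicate 2 or 3, or PreB replicate 1 or 2, and Top2a without CD4 replicate 2, ETP replicate 1 or IgM+SP replicate 2.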

How the results depend on the processing

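All 43 members passed the F-test under every alternative run, and 262 of 301 recomputed counts of called members stayed within 1.5 times the reported one. With the mean of probe sets the counts were 15 for PreCFUE minus MkE, 13 for MkP minus MkE, 2 for GMP minus LMPP, 11 for ProB minus CLP and 7 for the difference between the B and T paths. With quantile normalization again they were 36 for MkP minus MkE and 8 for GMP minus LMPP. With the groups fitted alone they were 1 for STHSC minus LTHSC, 1 for LMPP minus STHSC, 2 for CFUE minus PreCFUE, 17 for PreB minus ProB, 15 for IgM+SP minus PreB and 9 for the difference between paths. With only the Eif2s3y arrays of PreB, 18 were called against ProB. The replicate number as a block gave, for example, 41 for STHSC minus LTHSC and 17 for MkP minus MkE, and moved no count by over 1.5 times.

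With the Xist class as a block the counts were 1 for LMPP minus STHSC, 31 for MkE minus STHSC, 2 for CFUE minus PreCFUE, 30 for ProE minus CFUE, 28 for GM minus GMP, 5 for ProB minus CLP and 22 for the difference between paths. Only LMPP, ETP and PreB spanned more than 1 class, and only PreB held arrays of the Xist and of the Eif2s3y class. The block takes the difference between those classes from PreB alone, so it carries the PreB split into other groups. Under it Plk1 was -2.87 for GM minus GMP, and for ProB minus CLP Plk1 was -1.77, Birc5 -0.62, Ube2c -0.44 and Kif23 -1.09. For the difference between paths Plk1 was 2.68, Birc5 3.11, Ube2c 1.40 and Racgap1 0.21, all of the opposite sign to the reported values.

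Leaving out 1 array in turn gave 26 to 42 for STHSC minus LTHSC, 1 to 3 for LMPP minus STHSC, 5 to 18 for MkE minus STHSC, 15 to 23 for PreCFUE minus MkE, 1 to 2 for CFUE minus PreCFUE, 4 to 6 for ProE minus CFUE, 11 to 23 for MkP minus MkE, 0 to 4 for GM minus GMP (limma called 0 without GM replicate 2, 6 at an unadjusted p under 0.05), 11 to 14 for ProB minus CLP and 8 to 16 for the difference between paths, where the low counts were 9 without CD4 replicate 2, 8 without IgM+SP replicate 1 and 9 without IgM+SP replicate 2. Of 17 groups, 7 kept their rank by module mean after quantile normalization, 10 with the mean of probe sets, 12 with centring and 13 to 17 when an array was left out. The scalings moved the median of all genes by -0.24 to 0.27, by over 0.1 in 6 of 18 comparisons, and the split of calls over all genes by over 10 points in 10. The cause of these changes was not tested.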
